A study of Homo sapiens with 60 samples.

Results

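The nuclear-encoded subunits of the mitochondrial respiratory chain were examined in A549 cells, a human lung carcinoma line of epithelial origin, after exposure to herbal extracts. The members were the protein-coding genes named for structural subunits of complexes I to V (symbols beginning NDUFA, NDUFB, NDUFC, NDUFS or NDUFV, SDHA to SDHD, UQCR and CYC1, COX4 to COX8, and ATP5F1, ATP5M or ATP5P) whose mean level over all 60 libraries was at least 1 CPM (counts scaled to a common library size of 1e6). This gave 77 members among 60675 annotated genes: 37 of complex I, 4 of complex II, 9 of complex III, 10 of complex IV and 17 of complex V. Of 84 protein-coding genes whose symbols matched, 7 lay under 1 CPM, namely the muscle, testis and lung isoforms COX4I2, COX6A2, COX6B2, COX7A1, COX7B2 and COX8C, and ATP5MGL. No member lay near that limit: the lowest, NDUFA7, averaged 17.4 CPM, and the highest gene left out, COX6B2, averaged 0.564 CPM. NDUFA4 was counted in complex I by its symbol, although it is now regarded as a complex IV subunit, and the assembly factors (NDUFAF, SDHAF), the paralogs NDUFA4L2, COX7A2L and UQCRHL, the acyl carrier protein NDUFAB1 and readthrough genes such as ATP5MF-PTCD1 were left out although their symbols begin alike. All 77 members passed the filter on low counts, so none was lost from any test.

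All cells were A549 and were harvested 24 h after treatment. Sayeok-tang, a water extract of a herbal formula, was given at 20, 100 and 500 µg/mL with 3 libraries per dose. Bojungikgi-tang, also a formula extracted in water, was given at 20, 100 and 500 µg/mL with 2 libraries per dose. Ethanol extracts of Zingiberis Rhizoma Recens (called fresh ginger here), of Zingiberis Rhizoma (dried ginger) and of Pinelliae Tuber (Pinellia) were given at 20, 100 and 500 µg/mL, and that of Scutellariae Radix (Scutellaria) at 7.6, 38 and 190 µg/mL, each with 3 libraries per dose. Ethanol extracts of Coptis (Coptidis Rhizoma; 4.4, 22 and 110 µg/mL) and Zizyphus (Zizyphi Fructus; 20, 100 and 500 µg/mL) had 1 library per dose. Within each extract these doses are called low, medium and high. The 3 vehicle libraries were labelled 0.1% DMSO, whereas the series text gives a different DMSO percentage for the vehicle. The sample labels of the extract libraries give no DMSO percentage. The labels do not tell whether the replicates of a group are separate cultures, and the spread behind every p-value may therefore be technical. In bulk RNA, fewer cells of a kind and less RNA per cell cannot be told apart.

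The respiratory chain passes electrons from NADH (complex I) and succinate (complex II) through ubiquinone, complex III and cytochrome c to complex IV, which reduces oxygen. Complexes I, III and IV pump protons, and complex V, the ATP synthase, uses the resulting gradient to make ATP. Most subunits are encoded in the nucleus and a small core in the mitochondrial genome, so assembly draws on both. Promoters of the nuclear genes are known for sites of the transcription factors NRF1 (nuclear respiratory factor 1), GABP of the ETS family, and YY1.

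Promoter sequence was found in RefSeq tables (GRCh38.p14; 250 bases before to 50 bases after each annotated start) for 63 of the 77 members, in 75 windows. Both strands were searched. The NRF1-type motif (GCGCA, then any base, then GCGC) occurred in 21.3% of the members' windows and in 5.78% of all 35116 windows. The ETS-type motif CCGGAAG occurred in 29.3% of the members' windows and in 10.3% of all windows. The YY1-type motif ATGGCGGC occurred in 17.3% of the members' windows and in 3.0% of all windows. The 5 windows printed here belong to 4 genes that were lower at the high dose of dried ginger and of Scutellaria, SDHA, NDUFB4, UQCRFS1 and NDUFB3, and to NDUFA7, which was higher at the high dose of Scutellaria. Capitals mark matches to the NRF1-type motif in the first 3 sequences and to the YY1-type motif in NDUFA7.
SDHA, chr5:218070-218369, plus strand: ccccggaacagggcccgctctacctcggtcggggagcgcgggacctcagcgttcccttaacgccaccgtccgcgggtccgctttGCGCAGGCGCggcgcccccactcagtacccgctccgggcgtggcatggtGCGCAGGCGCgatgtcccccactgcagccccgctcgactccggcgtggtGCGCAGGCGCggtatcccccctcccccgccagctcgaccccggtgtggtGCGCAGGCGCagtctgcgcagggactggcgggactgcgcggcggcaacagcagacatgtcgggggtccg
NDUFB4, chr3:120596086-120596385, plus strand: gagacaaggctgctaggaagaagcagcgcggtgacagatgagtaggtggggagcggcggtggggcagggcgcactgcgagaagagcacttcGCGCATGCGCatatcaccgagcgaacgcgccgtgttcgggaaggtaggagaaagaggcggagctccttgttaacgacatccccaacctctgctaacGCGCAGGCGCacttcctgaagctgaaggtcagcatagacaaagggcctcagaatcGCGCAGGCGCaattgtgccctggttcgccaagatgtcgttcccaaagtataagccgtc
UQCRFS1, chr19:29213102-29213401, minus strand: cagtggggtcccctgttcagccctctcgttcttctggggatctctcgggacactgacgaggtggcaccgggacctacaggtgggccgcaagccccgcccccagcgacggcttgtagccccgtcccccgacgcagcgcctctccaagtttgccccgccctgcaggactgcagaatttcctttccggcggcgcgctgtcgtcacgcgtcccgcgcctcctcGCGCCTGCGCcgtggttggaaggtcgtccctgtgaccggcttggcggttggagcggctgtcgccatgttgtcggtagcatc
NDUFB3, chr2:201071751-201072050, plus strand: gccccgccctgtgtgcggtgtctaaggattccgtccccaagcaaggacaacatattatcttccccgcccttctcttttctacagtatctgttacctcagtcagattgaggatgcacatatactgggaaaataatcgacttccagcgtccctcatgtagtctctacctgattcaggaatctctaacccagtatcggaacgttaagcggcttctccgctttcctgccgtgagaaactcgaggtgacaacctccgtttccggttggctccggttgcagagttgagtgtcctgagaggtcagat
NDUFA7, chr19:8321326-8321625, minus strand: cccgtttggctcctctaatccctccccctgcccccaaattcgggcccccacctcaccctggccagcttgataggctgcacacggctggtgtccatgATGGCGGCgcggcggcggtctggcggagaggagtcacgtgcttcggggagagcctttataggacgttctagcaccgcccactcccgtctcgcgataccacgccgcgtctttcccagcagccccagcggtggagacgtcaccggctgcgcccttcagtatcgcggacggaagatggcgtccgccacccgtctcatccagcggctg
SDHA held 4 NRF1-type matches, with first bases at -166, -117, -68 and -19 from the start. NDUFB4 held 3, at -159, -63 and -8, UQCRFS1 held 1 on the opposite strand at -31, and NDUFB3 held no match to any of the 3 motifs. A match is a run of letters and not evidence of binding.

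Library totals ranged from 17.51 to 38.54 × 1e6 counts (median 23.54 × 1e6). The members together took 0.769% to 0.94% of the counts, and genes of the mitochondrial genome 8.29% to 15.9%. The highest mitochondrial shares were in the Coptis medium (15.9%) and low (15.0%) libraries. The protein genes of the mitochondrial genome were not higher there. They summed to 48000 CPM in Coptis medium and 65600 CPM in Coptis low, against 62000 to 69700 CPM in vehicle libraries. In the Coptis high library they summed to 35400 CPM. Fresh ginger medium replicate 2, the smallest library, had the highest share of member counts, 0.94%. Of the 7 epithelial markers, KRT8 had 1940 to 3670 CPM, whereas CDH1 had 20.8 to 37.7 CPM and EPCAM 3.84 to 6.54 CPM. Among 10 markers of other cell types CD3E had no count in any library, the blood, endothelial, muscle and liver markers PTPRC, PECAM1, VWF, DES, ALB and HBB stayed at or under 0.151 CPM, and CD68 (5.09 to 16.9 CPM) and COL1A1 (17.4 to 36.0 CPM) were present throughout.

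Levels between genes were compared as vehicle CPM per kilobase of transcript. The length used was the median over a gene's annotated protein-coding transcripts, whether or not these cells express them. ATP5F1B, the catalytic beta subunit of the ATP synthase head, had the highest value at 597 ± 16.8 CPM per kilobase (SD, n = 3), and COX6B1 of complex IV followed at 525 ± 47.1. ATP5MF (390 ± 18.2) and COX6A1 (380 ± 25.7) did not differ beyond their SDs. By complex, the median was 66.1 CPM per kilobase for complex I, 70.5 for complex II, 121 for complex III, 246 for complex IV and 140 for complex V. Within complex II the membrane anchor SDHC stood at 311 CPM per kilobase, above a complex median of 70.5. That value rests on a median annotated length of 460 bases for SDHC, against 2107.5 bases for SDHA. Before scaling by length, SDHC had 143 CPM and SDHA 115 CPM in vehicle. The members had short transcripts, with a median of 750 bases against 2472 bases for all genes of at least 1 CPM, and a similar GC content, 50.0% against 49.4%.

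Against vehicle, members were lower and none was called higher. Over 18 comparisons of extract and dose with vehicle, 502 of 1386 member tests were called lower at an adjusted p under 0.05 (edgeR quasi-likelihood test, Benjamini-Hochberg adjustment over all genes tested) and 0 were called higher. Higher values reached an unadjusted p under 0.05 in 1 test, and DESeq2 called 568 lower and 0 higher. The share of all genes called higher in these comparisons ranged from 0.229% (fresh ginger medium) to 20.2%. All 18 comparisons use the same 3 vehicle libraries, so they are not independent of each other. Summed over the 77 members, the dried ginger high libraries had the lowest mean of the treated groups, at 7622, 7497 and 7608 CPM, and the highest single library was fresh ginger medium replicate 2 at 9506 CPM. The vehicle libraries stood at 8457, 8861 and 9298 CPM. The vehicle libraries carry a set number in their labels that no extract library shares, so differences in handling between sets cannot be told apart from treatment. The same holds for solvent, because the extract labels give no DMSO percentage and 2 of the extracts were made in water.

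**Figure D1:**
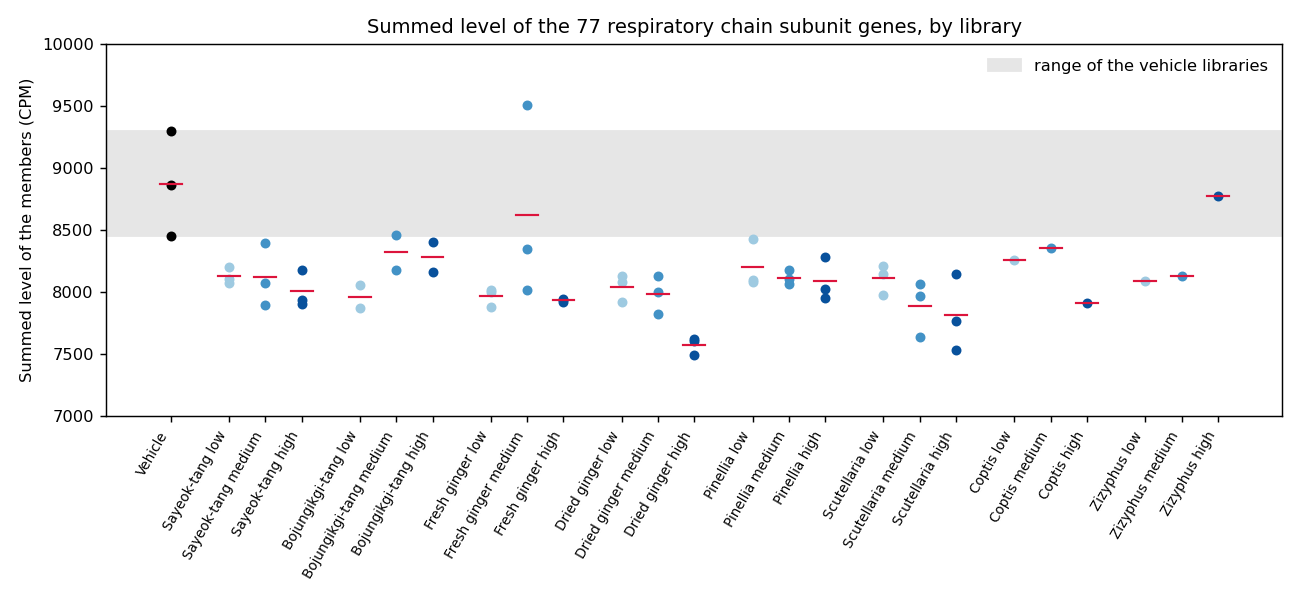
Summed level of the 77 members in CPM (y axis, which does not start at 0) in every library (points), with the mean of each group (red line), for vehicle and then each extract from low to high dose. The grey band spans the vehicle libraries, 8457 to 9298 CPM. The dried ginger high libraries, at 7497 to 7622 CPM, lie below all libraries of the low dose, and fresh ginger medium replicate 2 lies above the band at 9506 CPM.

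At the low doses, 33 of 77 members were called lower with Sayeok-tang, where 4.76% of all 16721 genes tested were called lower. The counts were 31 with Bojungikgi-tang (background 4.19%), 19 with fresh ginger (3.63%), 14 with dried ginger (2.14%), 23 with Pinellia (3.46%) and 26 with Scutellaria (5.02%). At the medium doses they were 35 with Sayeok-tang (background 6.0%), 6 with Bojungikgi-tang (1.28%), 1 with fresh ginger (0.541%), 18 with dried ginger (3.5%), 32 with Pinellia (4.33%) and 44 with Scutellaria (5.51%). At the high doses they were 46 with Sayeok-tang (background 9.53%), 11 with Bojungikgi-tang (2.33%), 29 with fresh ginger (7.16%), 48 with dried ginger (19.0%), 32 with Pinellia (5.08%) and 54 with Scutellaria (20.0%). The median log2 difference of the members ranged from -0.234 (dried ginger high) to -0.045 (fresh ginger medium), whereas the median of all genes tested lay between -0.001 and 0.009. The differences were small in size and were present at the lowest dose of all 6 extracts. The background shares are over all genes tested, which were not matched to the members for level.

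Many of these counts rested on single libraries. The counts for the high doses of Sayeok-tang, dried ginger and Scutellaria ranged over 32 to 55, 39 to 51 and 43 to 60 when libraries were left out in turn, each within 1.5 times the full count. Without vehicle replicate 3, whose member sum is the highest of the vehicle libraries, the counts fell to 6 for Bojungikgi-tang high, 11 for fresh ginger high and 14 for Pinellia high. At the medium doses without it they were 17 for Sayeok-tang, 3 for Bojungikgi-tang, 0 for fresh ginger, 6 for dried ginger, 11 for Pinellia and 25 for Scutellaria. At the low doses they were 17 for Sayeok-tang, 19 for Bojungikgi-tang, 4 for fresh ginger, 2 for dried ginger, 7 for Pinellia and 10 for Scutellaria. Without vehicle replicate 2 they were 6 for Bojungikgi-tang high, 16 for fresh ginger high and 21 for Pinellia high, 21 for Sayeok-tang medium, 3 for Bojungikgi-tang medium and 11 for dried ginger medium, and 18 for Sayeok-tang low, 10 for fresh ginger low, 4 for dried ginger low and 14 for Pinellia low. Without vehicle replicate 1 they were 49, 16 and 27 for Bojungikgi-tang low, medium and high, 0 for fresh ginger medium and 40 for Scutellaria low. Among the treated libraries, leaving out replicate 2 or 3 gave 3 or 5 for Bojungikgi-tang high and 14 or 6 for Bojungikgi-tang low, and leaving out replicate 2 gave 0 for Bojungikgi-tang medium. Leaving out replicate 1 or 2 gave 16 or 18 for fresh ginger high and 18 or 21 for Pinellia high, and leaving out replicate 1 or 3 gave 12 or 20 for Sayeok-tang medium. Leaving out replicate 2 or 3 gave 11 or 9 for dried ginger medium, 13 or 17 for Pinellia medium and 7 or 5 for Pinellia low. For fresh ginger medium the count was 10 without replicate 2, the library that stands apart, and 0 without replicate 1 or replicate 3. Leaving out replicates 1, 2 and 3 in turn gave 9, 6 and 9 for fresh ginger low and 3, 5 and 3 for dried ginger low. Leaving out replicate 2 gave 26 for Scutellaria medium and 15 for Scutellaria low, and leaving out replicate 3 gave 21 for Sayeok-tang low.

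**Figure D2:**
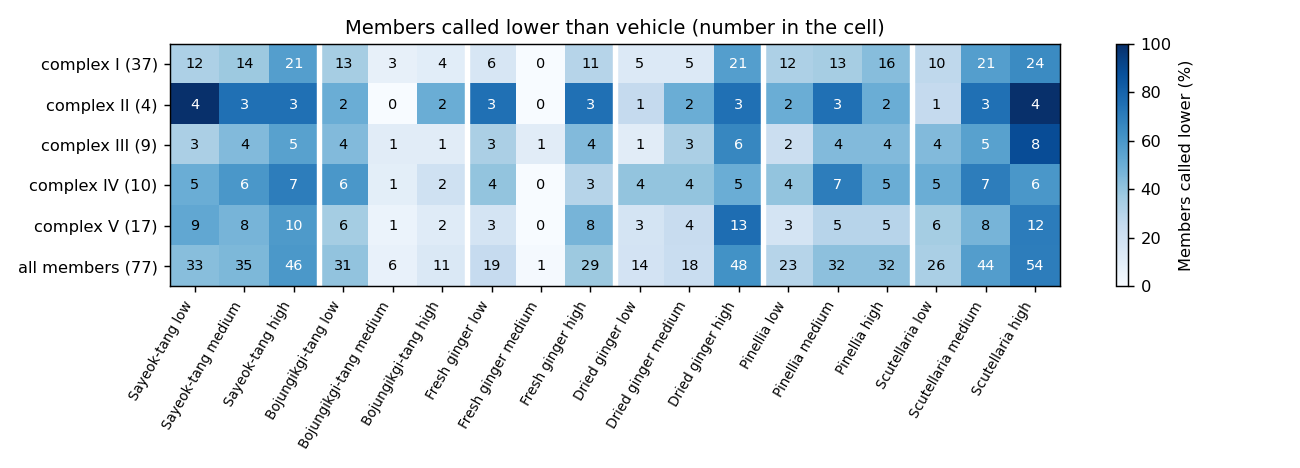
Number of members called lower than vehicle (figure in each cell) and their share of the complex in percent (colour), for each complex with its number of members (rows) and each extract and dose from low to high (columns). Scutellaria high has the largest count in the bottom row, 54 of 77, and fresh ginger medium the smallest, 1 of 77.

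The lower levels were spread over all 5 complexes. At the high dose of Scutellaria, 24 of 37 members of complex I, 4 of 4 of complex II, 8 of 9 of complex III, 6 of 10 of complex IV and 12 of 17 of complex V were called lower. With dried ginger the counts were 21, 3, 6, 5 and 13, and with Sayeok-tang 21, 3, 5, 7 and 10. Across the 18 comparisons, 48 members were below vehicle in every one, 24 were called lower in at least 9, and 10 were never called lower. The 4 genes called most often came from complexes II to V. UQCRC1, a core protein of complex III, was called in 18 of 18 comparisons, COX7A2, a small subunit of complex IV, in 17, and SDHD, a membrane anchor of complex II, and ATP5F1C, the gamma subunit of the rotary shaft of complex V, in 16 each. The 10 members never called lower were NDUFS1, NDUFA3, NDUFA5, NDUFA10, NDUFA13, CYC1, COX5A, ATP5F1D, ATP5MC2 and ATP5MK. They include NDUFS1, the large iron-sulfur subunit of complex I, CYC1, the cytochrome c1 of complex III, and COX5A, a nuclear-encoded subunit of complex IV.

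COX7A2 had 76.5, 74.4 and 78.3 CPM in Sayeok-tang high libraries, against 90.3, 100.0 and 97.5 CPM in vehicle libraries. The groups did not overlap, and the log2 difference was -0.33 (SE 0.038, adjusted p = 2.79e-08 by edgeR). UQCRC1 had 109.4, 105.0 and 101.4 CPM in Sayeok-tang high libraries, against 125.4, 124.4 and 128.0 CPM in vehicle libraries, a log2 difference of -0.26 (SE 0.033). In the other extracts at high dose UQCRC1 differed from vehicle by -0.19 (Bojungikgi-tang), -0.28 (fresh ginger), -0.23 (dried ginger), -0.18 (Pinellia) and -0.09 (Scutellaria) on the log2 scale. The last of these was called at an adjusted p of 0.0359 by edgeR and was lost without Scutellaria high replicate 2 or 3 or without vehicle replicate 1 or 3. SDHD had 60.5, 56.4 and 57.4 CPM in Scutellaria high libraries, against 72.5, 72.4 and 71.5 CPM in vehicle libraries, and its log2 difference was -0.31 (SE 0.038). CYC1, by contrast, had 160.6, 171.8 and 168.8 CPM in Sayeok-tang high libraries, against 151.4, 155.9 and 170.2 CPM in vehicle libraries, and the groups overlapped.

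Members with the lowest adjusted p at the high doses, beside those above, follow by extract as log2 differences from vehicle. All were called, and absence of overlap between libraries was a condition for naming them. With Sayeok-tang they were NDUFB2 (-0.26, SE 0.041) and SDHD (-0.21, SE 0.037). With Bojungikgi-tang they were NDUFA8 (-0.29, SE 0.052), COX7A2 (-0.25, SE 0.042) and NDUFA6 (-0.26, SE 0.054). With fresh ginger they were COX6B1 (-0.26, SE 0.051), UQCR10 (-0.24, SE 0.055) and ATP5F1C (-0.22, SE 0.045). With dried ginger they were NDUFB6 (-0.35, SE 0.048), SDHA (-0.36, SE 0.046), COX6B1 (-0.37, SE 0.051) and ATP5MF (-0.39, SE 0.053). With Pinellia they were SDHD (-0.25, SE 0.037), COX7A2 (-0.31, SE 0.045) and COX7C (-0.31, SE 0.048). With Scutellaria they were NDUFC2 (-0.33, SE 0.042), SDHA (-0.32, SE 0.032) and ATP5F1C (-0.29, SE 0.034). NDUFB2, NDUFA6, NDUFA8 and NDUFC2 are accessory subunits of complex I, and COX6B1 and COX7C are small subunits of complex IV.

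The 13 protein genes of the mitochondrial genome, which encode the core subunits of complexes I, III, IV and V, were measured beside the nuclear members. At the high dose of Sayeok-tang 6 of 13 were called higher and 0 lower, with a median log2 difference of 0.37, where 9.39% of all genes were called higher. At the high dose of dried ginger 2 were called higher and 0 lower (median 0.20), and at that of Scutellaria 1 higher and 1 lower (median -0.07), where 20.2% of all genes were called higher with either extract. Their summed level was 76100 to 85200 CPM in Sayeok-tang high libraries, against 62000 to 69700 CPM in vehicle libraries. It was not particular to that dose, with 77600 to 88900 CPM at the medium and 68100 to 87900 CPM at the low dose. Among the replicated extract groups the mean ran from 63200 (Scutellaria high) to 82100 CPM (Sayeok-tang medium), beside 66200 CPM for vehicle.

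Comparing the high with the low dose of the same extract needs no vehicle library. With Sayeok-tang 0 of 77 members were called in either direction by edgeR, where 7.58% of 16721 genes were called, and the median log2 change of the members was -0.03. Bojungikgi-tang (background 0.712%), fresh ginger (3.67%) and Pinellia (0.0663%) also had 0 members called. At an unadjusted p under 0.05 there were 2 members with Sayeok-tang, 8 with Bojungikgi-tang (all higher), 2 with fresh ginger and 0 with Pinellia, and DESeq2 called 0 in each. With dried ginger 20 members fell and 0 rose, where 16.0% of all 16628 genes tested fell and 16.8% rose. With Scutellaria 18 members fell and 5 rose, where 15.6% of 16582 genes fell and 15.5% rose. In either direction the members called were 26.0% with dried ginger, against a background of 32.8%, and 29.9% with Scutellaria, against 31.0%, so the share called was close to that of all genes and the direction was mainly downward. The median log2 change of the members was -0.08 with dried ginger and -0.06 with Scutellaria, beside 0.00 for all genes tested in both.

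Leaving out dried ginger high replicate 1, high replicate 2 or low replicate 2 reduced the dried ginger count to 13, 11 or 12. Leaving out Scutellaria high replicate 3 reduced the Scutellaria count of members called in either direction to 15. Among called members named by rule or followed throughout, 7 of 11 with dried ginger kept the call in every such fit. With Scutellaria 8 of 17 kept it. The mitochondrial genome list had 0 of 13 genes called in either extract, with medians of 0.06 in dried ginger and -0.07 in Scutellaria. Markers of other cell types moved in these comparisons. COL1A1 fell by 0.73 on the log2 scale with dried ginger and by 0.52 with Scutellaria, and CD68 rose by 1.21 with dried ginger (SE 0.136), while the other markers named above lay at or near 0 CPM. The summed level of the 10 markers was 34.9 to 36.7 CPM at the high and 36.1 to 40.8 CPM at the low dose of dried ginger, and 27.7 to 29.8 CPM at the high and 34.7 to 41.0 CPM at the low dose of Scutellaria. Of the 7 epithelial markers, 2 were called lower and 1 higher with dried ginger, and 3 lower and 1 higher with Scutellaria. Among them KRT8 fell by 0.63 and KRT18 by 0.52 with dried ginger, and KRT8 by 0.21 with Scutellaria. Their part in the changes of the members was not tested.

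**Figure D3:**
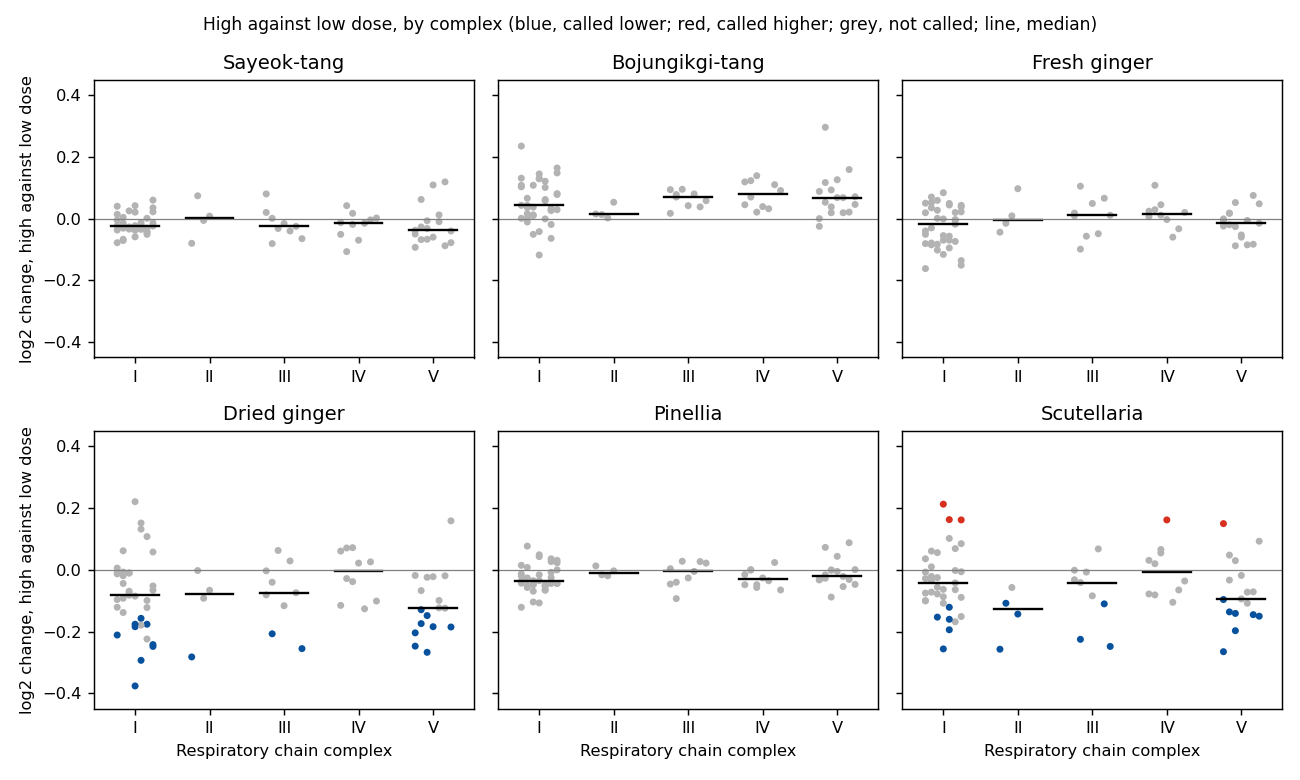
Log2 change of each member (points) at the high against the low dose of 6 extracts, grouped by complex (x axis). Blue points were called lower, red points higher and grey points not called, and black lines are medians. Called members appear with dried ginger (20 lower) and Scutellaria (18 lower, 5 higher) and in no other panel.

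In complex I, 9 of 37 members fell with dried ginger, and 5 fell and 3 rose with Scutellaria. With dried ginger the 4 largest falls were in the NDUFB group of the proton-pumping membrane arm. NDUFB3 (ENSG00000119013, chromosome 2, 201071433 to 201085750 in GRCh38) had 29.3, 28.2 and 30.5 CPM at the high dose of dried ginger, against 37.6, 39.3 and 37.4 CPM at the low dose. The libraries did not overlap, and the log2 change was -0.38 (SE 0.079, adjusted p = 0.000715 by edgeR). With Scutellaria NDUFB3 had 34.0, 28.0 and 31.4 CPM at the high dose, against 35.9, 39.4 and 36.3 CPM at the low dose, a log2 change of -0.26 (SE 0.058). NDUFB4 had 68.7, 74.4 and 68.6 CPM at the high dose of dried ginger, against 89.6, 91.0 and 78.0 CPM at the low dose. It changed by -0.29 (SE 0.064) with dried ginger and by -0.19 (SE 0.064) with Scutellaria. NDUFB6 had 31.9, 30.1 and 31.9 CPM at the high dose of dried ginger, against 37.9, 37.1 and 36.6 CPM at the low dose, a log2 change of -0.25 (SE 0.048), and its change of -0.15 with Scutellaria was not called (adjusted p = 0.0705 by edgeR). NDUFB1, NDUFA9, NDUFA12, NDUFS3 and NDUFS6 also fell with dried ginger, by 0.18 to 0.24 on the log2 scale, and NDUFA8 fell with both extracts, although its dried ginger call was lost in each of the 6 fits that left out a library and its Scutellaria call without high replicate 1.

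The members of complex I that rose with Scutellaria were NDUFA7, NDUFA13 and NDUFV1. NDUFV1, the subunit that binds NADH and flavin, had 108.2, 99.7 and 100.8 CPM at the high dose of Scutellaria, against 89.3, 93.0 and 93.9 CPM at the low dose. The groups did not overlap, and the log2 change was 0.16 (SE 0.046, adjusted p = 0.0061 by edgeR). The call was lost without Scutellaria high replicate 1, the highest library, at an adjusted p of 0.0604 by edgeR. With dried ginger NDUFV1 had 93.2, 92.9 and 92.4 CPM at the high dose, against 85.3, 90.9 and 91.2 CPM at the low dose, and was not called. NDUFA7, an accessory subunit, had 21.3, 16.7 and 19.2 CPM at the high dose of Scutellaria, against 16.0, 16.0 and 17.4 CPM at the low dose, and the groups overlapped although the log2 change of 0.21 (SE 0.074) was called. With dried ginger its libraries stood at 18.8, 18.7 and 19.0 CPM at the high dose and 17.1, 16.2 and 15.2 CPM at the low dose, with a log2 change of 0.22 (SE 0.089) that was not called (adjusted p = 0.0595 by edgeR). NDUFA13, also known as GRIM-19, changed by 0.16 (SE 0.055) with Scutellaria, and this call was lost without high replicate 1, low replicate 1 or low replicate 2. NDUFA7 overlaps the ribosomal protein gene RPS28, which averaged 170 CPM, and it is not given in the sources used here whether counting used strand. In all, 26 members overlap another gene of at least 1 CPM, among them NDUFB3 (HYCC2, 27 CPM), NDUFS3 (CELF1, 135 CPM), ATP5PB (WDR77, 66.6 CPM), ATP5PD (KCTD2, 39.4 CPM), ATP5MF (CPSF4, 27.5 CPM) and ATP5PF (GABPA, 34.4 CPM), and reads shared with these genes could not be told apart.

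In complex II the catalytic subunit fell with both extracts. SDHA (ENSG00000073578, chromosome 5, 218241 to 256700 in GRCh38), the flavoprotein that oxidises succinate, had 92.2, 85.3 and 92.0 CPM at the high dose of dried ginger, against 109.4, 106.1 and 112.5 CPM at the low dose. With Scutellaria it had 93.1, 91.7 and 91.5 CPM at the high dose, against 108.5, 111.8 and 110.3 CPM at the low dose. The high and low dose libraries were well separated in both extracts. The log2 change was -0.28 (SE 0.046, adjusted p = 1.81e-05 by edgeR) with dried ginger and -0.26 (SE 0.032, adjusted p = 3.73e-08 by edgeR) with Scutellaria, and both calls held in each of 6 fits that left out a library. At the medium dose SDHA stood at 104.1, 103.1 and 107.2 CPM with dried ginger and 108.9, 107.9 and 104.9 CPM with Scutellaria, between the high and low dose means. SDHA has 4 pseudogenes whose summed level was 16.4% of its own. That sum was 16.1 to 18.1 CPM at the high and 16.0 to 20.1 CPM at the low dose of dried ginger, and 15.5 to 16.3 CPM at the high and 17.0 to 19.3 CPM at the low dose of Scutellaria. SDHD, at 60.5, 56.4 and 57.4 CPM in the high against 65.1, 64.0 and 63.6 CPM in the low dose libraries, and SDHB, the iron-sulfur subunit, fell with Scutellaria by 0.14 and 0.11 on the log2 scale, and the SDHB call was lost without Scutellaria high replicate 2 or 3 or low replicate 2 or 3. With dried ginger neither was called.

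In complex III, UQCRFS1, the Rieske iron-sulfur protein that takes electrons from ubiquinol, had 231.4, 225.5 and 230.9 CPM at the high dose of dried ginger, against 270.9, 271.2 and 278.5 CPM at the low dose. With Scutellaria it had 224.3, 217.9 and 218.3 CPM at the high dose, against 276.2, 247.5 and 261.5 CPM at the low dose. Neither pair of groups overlapped. The log2 changes were -0.26 (SE 0.074) and -0.25 (SE 0.061), and the dried ginger call was lost without high replicate 2 or low replicate 3. The vehicle libraries, at 242.5, 266.7 and 299.7 CPM, spanned the low dose libraries of both extracts. UQCR10, a small subunit, fell by 0.21 with dried ginger (SE 0.055) and by 0.23 with Scutellaria (SE 0.062) on the log2 scale. UQCRC1, the member called in all comparisons with vehicle, was called in neither dose comparison.

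In complex IV few members were called with dose. With dried ginger 0 of its 10 members were called, 1 of them at an unadjusted p under 0.05, and its median log2 change was 0.00. With Scutellaria 1 was called, COX6A1, at 222.8, 195.0 and 199.8 CPM in the high dose libraries against 183.4, 179.9 and 189.1 CPM in the low dose libraries. The groups did not overlap, and the log2 change of 0.16 (SE 0.051) was lost without Scutellaria high replicate 1 or low replicate 1 or 2. COX7A2, the complex IV gene most often called lower than vehicle, had 72.7, 74.6 and 77.2 CPM at the high and 80.2, 84.9 and 75.5 CPM at the low dose of dried ginger, and those groups overlapped.

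In complex V, 8 of 17 members fell with dried ginger and 7 fell and 1 rose with Scutellaria. Of the rotor and head subunits, ATP5F1A (alpha), ATP5F1B (beta) and ATP5F1C (gamma) fell with dried ginger, by 0.20, 0.13 and 0.15 on the log2 scale. ATP5F1B, the most abundant member, had 906.2, 886.2 and 931.6 CPM at the high dose of dried ginger, against 1004.9, 974.6 and 999.5 CPM at the low dose. Its call was lost without dried ginger high replicate 2, and that of ATP5F1C without high replicate 2 or low replicate 2. ATP5F1C fell with Scutellaria as well (-0.14, SE 0.035). ATP5F1A was called with Scutellaria at a log2 change of -0.10 (SE 0.034), although its groups overlapped and the call was lost without high replicate 2 or 3 or low replicate 1 or 3. ATP5MF, a small subunit of the membrane part, had 97.3, 97.2 and 93.3 CPM at the high dose of dried ginger, against 112.5, 119.4 and 113.8 CPM at the low dose, a log2 change of -0.27 (SE 0.054). ATP5PD, a peripheral stalk subunit, rose with Scutellaria, to 151.2, 138.8 and 136.9 CPM at the high dose against 133.3, 125.5 and 126.6 CPM at the low dose, and this call was lost without high replicate 1.

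ATP5MC1, ATP5MC2 and ATP5MC3 encode the same mature c subunit, which forms the rotating ring, behind different import sequences, and they differed in their calls. ATP5MC3 had 155.6, 146.6 and 154.2 CPM at the high dose of Scutellaria, against 189.8, 180.5 and 179.0 CPM at the low dose, a log2 change of -0.27 (SE 0.053, adjusted p = 0.000542 by edgeR). With dried ginger it had 164.9, 160.8 and 162.5 CPM at the high dose, against 205.0, 195.6 and 178.3 CPM at the low dose, a log2 change of -0.25 (SE 0.068). ATP5MC1 fell with Scutellaria (-0.15, SE 0.037) and was not called with dried ginger, where its groups overlapped. ATP5MC2 was called in neither, and had 248.8, 228.9 and 245.4 CPM at the high against 225.0, 214.6 and 238.8 CPM at the low dose of Scutellaria. The differences between the paralogs' changes were not tested.

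**Figure D4:**
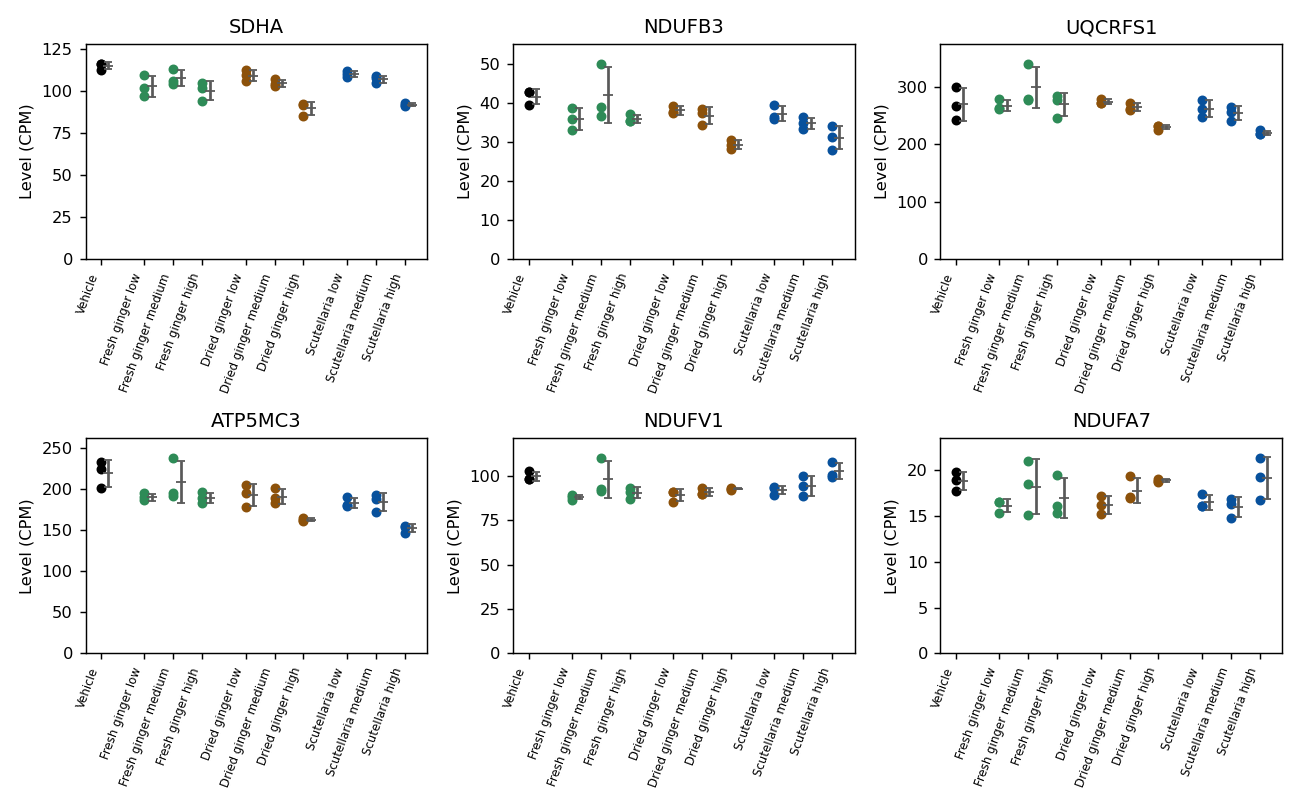
Level in CPM (y axis from 0) of 6 members in every library (points) of vehicle and of fresh ginger, dried ginger and Scutellaria from low to high dose, with mean and SD beside them. SDHA, NDUFB3, UQCRFS1 and ATP5MC3 are lower at the high dose of dried ginger and Scutellaria, as SDHA shows at 85.3 to 92.2 CPM in the dried ginger high libraries. NDUFV1 and NDUFA7 are highest in Scutellaria high replicate 1 among the Scutellaria libraries.

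The changes with dried ginger and with Scutellaria ran alongside each other. The doses compared share no library, although both fits held the same 3 vehicle libraries. The 12 members that fell in both were ATP5F1A, ATP5F1C, ATP5MC3, ATP5MF, ATP5PB, ATP5PF, NDUFA8, NDUFB3, NDUFB4, SDHA, UQCR10 and UQCRFS1, which are 60% of those that fell with dried ginger and 66.7% of those that fell with Scutellaria. Over all 16401 genes tested in both, 1664 fell in both, 63% and 64.5% of the lists, so the overlap of the members was near that of genes in general. Changes had the same sign in 68 of 77 members (88.3%), with Pearson r = 0.82 and Spearman rho = 0.78 across the 77 genes, beside 73.8%, 0.45 and 0.57 over all genes. Genes are not independent replicates, the points share transcript composition, so these values carry no p. The genes as a whole were not matched to the members for level. They include genes below the lowest member, NDUFA7, which averaged 17.4 CPM. Members with lower transcript GC content had lower changes: Pearson r between GC and the log2 change across the 77 members was 0.44 with dried ginger and 0.41 with Scutellaria, and -0.05 and -0.12 for transcript length. The median GC was 46.2% for members that fell with dried ginger against 50.8% for those not called, and 48.0% for members that fell and 55.7% for members that rose with Scutellaria. A smooth trend of level on GC, fitted over all genes in each library, was also removed, a step chosen after seeing the data. This gave 24 members called in either direction with dried ginger and 29 with Scutellaria. Of the 12 that fell in both, 10 had a promoter window and 6 of these held the NRF1-type motif (ATP5F1C, NDUFA8, NDUFB4, SDHA, UQCR10 and UQCRFS1), beside 16 of 63 among all members with a window. None of the windows of the 5 members that rose with Scutellaria held it. The other motifs had the opposite order: the ETS-type motif was in 2 of the 10 and in 3 of the 5 (33.3% of all members with a window), and the YY1-type motif in 1 of the 10 and 2 of the 5 (19.0%). These counts were made after the calls were known and carry no test.

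**Figure D5:**
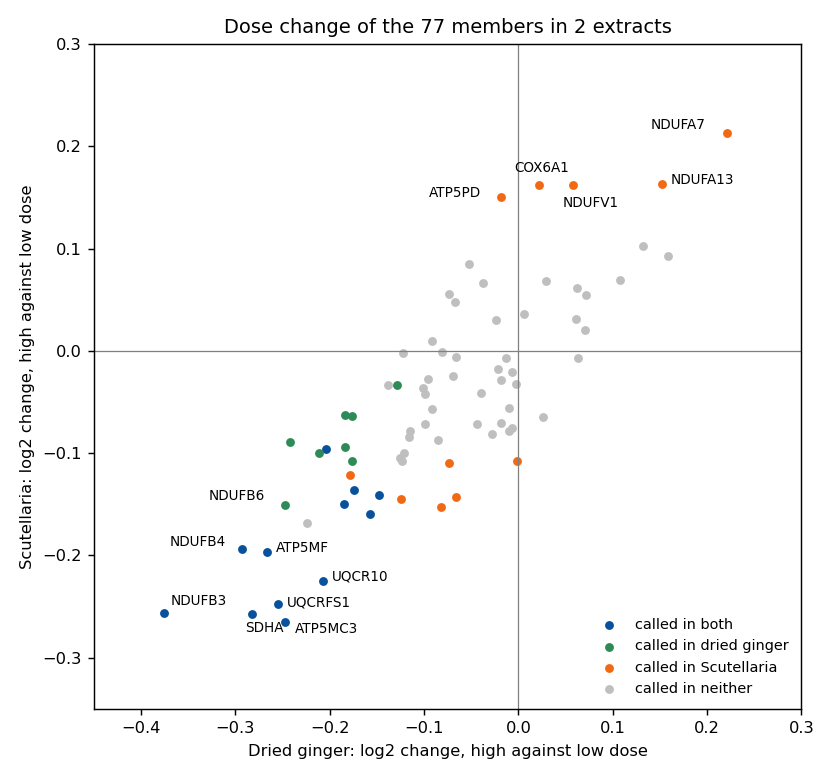
Log2 change at the high against the low dose with dried ginger (x axis) and with Scutellaria (y axis) for the 77 members (points), coloured by the comparison in which they were called. The 12 members that fell in both lie at the lower left, between -0.38 and -0.15 with dried ginger and between -0.27 and -0.10 with Scutellaria, and the 5 that rose with Scutellaria lie at the top.

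Dried and fresh ginger can be compared at matched doses. At the high dose 11 members were lower with dried than with fresh ginger and 0 were higher, where 11.3% of 16628 genes were called lower, 11.3% higher and 22.5% in either direction. By complex these were 2 of complex I, 2 of II, 2 of III, 0 of IV and 5 of V. ATP5MF had 97.3, 97.2 and 93.3 CPM with dried ginger high, against 114.6, 121.0 and 103.3 CPM with fresh ginger high. NDUFB3 had 29.3, 28.2 and 30.5 CPM with dried ginger high, against 35.3, 37.1 and 35.4 CPM with fresh ginger high. Both pairs of groups were separate, with log2 differences of -0.24 (SE 0.054) and -0.29 (SE 0.081). NDUFB6 (-0.21, SE 0.049) and SDHA (-0.16, SE 0.047) were lower as well. The count of 11 fell to 4 without dried ginger high replicate 1 or 2 or without fresh ginger high replicate 1, and to 6 without fresh ginger high replicate 2 or 3. The calls for ATP5MF and NDUFB6 held in each of the 6 such fits, that for NDUFB3 was lost without dried ginger high replicate 2 or fresh ginger high replicate 2, and that for SDHA without dried ginger high replicate 2 or fresh ginger high replicate 1 or 3. At the medium dose edgeR called 0 members, where 0.481% of genes were called, although 27 were lower at an unadjusted p under 0.05 and DESeq2 called 3. Without fresh ginger medium replicate 1 the count was 5. The change with dose itself differed between the ginger extracts in 3 members, NDUFB3, NDUFB6 and SDHA, where 11.2% of all genes differed, against 3.9% of the members. Without dried ginger high replicate 2, fresh ginger high replicate 1 or fresh ginger low replicate 2 this count was 1.

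Sayeok-tang and Bojungikgi-tang differed in 0 members at the high dose by edgeR, where 2.05% of genes were called. At an unadjusted p under 0.05 there were 5, all lower with Sayeok-tang, and DESeq2 called 0. Without Sayeok-tang high replicate 3 the count was 1. Their dose changes differed in 0 members (7 at an unadjusted p under 0.05, DESeq2 0), where 0.275% of genes were called. The median log2 difference of the members between Sayeok-tang and Bojungikgi-tang at the high dose was -0.06 with a median SE of 0.055, a difference not distinguishable from 0 for single genes at this depth and spread.

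Coptis and Zizyphus had 1 library per dose and are described by size. The median log2 ratio of the members to the vehicle mean (CPM plus 0.5) was -0.13, -0.09 and -0.14 at the low, medium and high dose of Coptis and -0.17, -0.14 and -0.03 at those of Zizyphus. Counted against the range of the 3 vehicle libraries, 51, 41 and 57 members were below it at the low, medium and high dose of Coptis and 61, 59 and 25 at those of Zizyphus. Above it were 3, 6 and 6 members with Coptis and 1, 1 and 10 with Zizyphus. Of all genes of at least 5 CPM, 35.7%, 37.6% and 43% were below the range and 32.8%, 37.5% and 38.9% above it with Coptis, and 33.4%, 31.2% and 26.4% were below and 31.2%, 29% and 26.3% above it with Zizyphus, so a single library often fell outside this range in either direction. Among these 10973 genes, the share higher by a log2 ratio of at least 0.5 and outside the vehicle range was 0.893%, 2.32% and 5.65% at the low, medium and high dose of Coptis, and the share lower was 0.483%, 1.91% and 4.9%. With Zizyphus those shares were 0.21%, 0.128% and 0.2% higher and 0.21%, 0.182% and 0.146% lower. The 1 member past that limit was NDUFB7, a membrane arm subunit of complex I, at -0.51 in the Zizyphus low library. Leaving out vehicle replicate 3 gave 0 members there and leaving out vehicle replicate 1 gave 2, and 1 member each passed with Coptis medium and Coptis high without vehicle replicate 1. Zizyphus high, with a member sum of 8773 CPM, was the library of these 6 that lay within the vehicle range of 8457 to 9298 CPM.

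Among genes that serve the respiratory chain without being subunits, counts of calls are given beside the shares of all genes, 16.0% fallen and 16.8% risen with dried ginger and 15.6% fallen and 15.5% risen with Scutellaria. Of 18 regulators of mitochondrial biogenesis tested, 4 fell (22.2%) and 1 rose (5.56%) with dried ginger. With Scutellaria 7 fell (38.9%) and 2 rose (11.1%). The 4 that fell with dried ginger were NRF1 (-0.34, SE 0.062), YY1 (-0.20, SE 0.037), GABPA (-0.18, SE 0.052), a DNA-binding subunit of GABP, and TFAM (-0.18, SE 0.041), which packages mitochondrial DNA and starts its transcription. With Scutellaria the same genes changed by -0.17 (NRF1, SE 0.061), -0.18 (YY1, SE 0.034), -0.15 (GABPA, SE 0.052) and -0.16 (TFAM, SE 0.037), all called. Of 16 enzymes of the tricarboxylic acid cycle and pyruvate dehydrogenase, which supply NADH and succinate, 7 fell and 0 rose with dried ginger, and 7 fell and 3 rose with Scutellaria. PDHB fell by 0.41 and FH by 0.28 on the log2 scale with dried ginger, and by 0.24 and 0.20 with Scutellaria. Of 54 assembly factors, 8 fell and 7 rose with dried ginger, and 10 fell and 5 rose with Scutellaria, which is 14.8% fallen and 13% risen with dried ginger and 18.5% fallen and 9.26% risen with Scutellaria, near those of all genes. Of 15 genes for cytochrome c and ubiquinone synthesis, 3 fell and 0 rose with dried ginger, and 3 fell and 3 rose with Scutellaria. Of 9 other enzymes that reduce ubiquinone, 1 fell and 3 rose with dried ginger and 1 fell and 1 rose with Scutellaria, and the sulfide oxidase SQOR rose in both, by 0.76 (SE 0.061) and 0.32 (SE 0.054). NDUFAB1, left out of the members by its symbol although it belongs to complex I, fell by 0.22 with dried ginger and 0.12 with Scutellaria. NDUFA4L2, the low-abundance paralog of NDUFA4 known for its induction in hypoxia, at 0.758 to 4.42 CPM over all libraries, rose by 1.62 (SE 0.189) with dried ginger and by 1.23 (SE 0.214) with Scutellaria on the log2 scale.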

How the data were processed

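RNA was sequenced as directional libraries on an MGI instrument, per the labels' protocols. The submitters' processing notes name FastQC 0.11.9, Trim Galore 0.6.5, STAR 2.7.3a, RSEM 1.3.3 and the build GRCh38 (hg38). The values the authors deposited are expected counts per gene, as the values show: 24.4% of the non-zero values were not whole. They were rounded to whole counts here. The table holds 269 value columns, of which 60 belong to the libraries described and 209 were not used. The count setting for strand is not given in the sources used here.

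Genes were filtered with filterByExpr (minimum count 10), scaled by TMM factors, and tested with edgeR 4.0.16 (robust quasi-likelihood F-test) in R 4.3.3. There was 1 fit for Sayeok-tang and Bojungikgi-tang, 1 for the ginger extracts and 1 for Pinellia and Scutellaria, each with the 3 vehicle libraries. P-values were adjusted by Benjamini-Hochberg over all genes tested and called under 0.05 in 29 comparisons. Levels are CPM with TMM factors over all 60 libraries. Alternatives were DESeq2 1.42.0, RLE size factors, no filter on low counts, a fit of all libraries, a replicate block, removal of a length trend or, added later, a GC trend (splines with 5 degrees of freedom), and leaving out each library. Coptis and Zizyphus were described by log2 ratios of CPM plus 0.5 to the vehicle mean.

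On simulated counts, 70.1% of genes changed 1.15-fold and 97.0% of those changed 1.25-fold were recovered in Sayeok-tang high against vehicle. In dried ginger high against low these shares were 53.7% and 89.6%, with 8% of the calls false. The simulations changed 67 genes 1.15-fold, 67 genes 1.25-fold and 66 genes 2-fold, and drew each gene independently. In the real dried ginger comparison 32.8% of 16628 genes were called, so the simulated shares need not hold there.

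The members, gene lists and tests were chosen with earlier results of these data known. In each comparison, the genes named are up to 4 members called in each direction with the lowest adjusted p among those whose libraries do not overlap, plus 20 members followed throughout. Others were named after their values were seen. Replicates of a group carry numbers, which were checked for pairing. Depth was 17.51 to 38.54 × 1e6 counts per library.

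The level of 1 marker of other cell types is not reported here.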

Additional observations from a re-analysis of the deposited data

Results flagged for a closer look

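The change from low to high dose differed between dried ginger and fresh ginger in 3 members, by a test of the difference itself (edgeR interaction term, adjusted over all genes), which is 3.9% of the members against 11.2% of all genes tested. The dried ginger change minus the fresh ginger change was -0.37 on the log2 scale for NDUFB3 (SE 0.113, adjusted p = 0.0324). It was -0.29 for NDUFB6 (SE 0.069, adjusted p = 0.00476) and -0.24 for SDHA (SE 0.065, adjusted p = 0.0157). The NDUFB6 call held in each of 12 fits that left out a library (edgeR adjusted p 0.00479 to 0.0199). The SDHA call held in 7 and was lost without dried ginger high replicate 2 or low replicate 3, or without fresh ginger high replicate 1 or 3 or low replicate 2. The NDUFB3 call held in 2, those without dried ginger high replicate 3 or fresh ginger low replicate 3. SDHA had 92.2, 85.3 and 92.0 CPM in dried ginger high libraries against 109.4, 106.1 and 112.5 CPM in dried ginger low libraries, and 101.8, 94.0 and 104.9 CPM in fresh ginger high libraries against 109.8, 97.4 and 102.2 CPM in fresh ginger low libraries. The fresh ginger groups overlapped and the dried ginger groups did not.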

How the results depend on the processing

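The values given here are counts of members called, and no result changed direction. Without the filter on low counts they were 26 (Bojungikgi-tang high), 49 (fresh ginger high), 51 (Pinellia high), 19 (Bojungikgi-tang medium), 33 (dried ginger medium), 50 (Sayeok-tang low), 51 (Bojungikgi-tang low), 39 (fresh ginger low), 27 (dried ginger low), 38 (Pinellia low) and 47 (Scutellaria low) against vehicle, 10 for dried against fresh ginger at the medium dose and 6 for the ginger dose changes. A fit of all 60 libraries gave 5 (Bojungikgi-tang high), 45 (fresh ginger high), 20 (Pinellia high), 18 (Sayeok-tang medium), 1 (Bojungikgi-tang medium), 2 (fresh ginger medium), 19 (Pinellia medium), 20 (Sayeok-tang low), 29 (fresh ginger low) and 13 (Pinellia low) against vehicle, and 9 for the ginger dose changes. That fit also gave 3, 10 and 30 members for Coptis low, medium and high and 3 for Zizyphus low, all lower (3.9%, 13%, 39% and 3.9% of the members), where 7.38%, 17.3%, 32.4% and 0.767% of all genes were called in either direction and the lone library is assumed to vary like the other groups. DESeq2 gave 2 (fresh ginger medium against vehicle), 3 (dried against fresh ginger medium) and 5 (ginger dose changes). Removing the length trend gave 20 for dried against fresh ginger high and 7 for the ginger dose changes, and removing the GC trend gave 11 (Bojungikgi-tang medium), 0 (fresh ginger medium) and 6 (ginger dose changes). A pseudocount of 2 gave 0 for Zizyphus low. With the replicate number as a block the counts were 13 and 18 for Bojungikgi-tang medium and high against vehicle, 2 for dried against fresh ginger medium and 6 for the ginger dose changes. Same-numbered libraries did not all deviate together: the median correlation was 0.00965 (-0.164 to 0.28) for the formulas, 0.0795 (-0.462 to 0.536, with 30 of 63 pairs over 0.1) for ginger and 0.0378 (-0.295 to 0.28) for Pinellia and Scutellaria, against -0.00223, -0.0486 and -0.0167 for other numbers. The numbers were therefore not taken to pair samples. The cause of these shifts was not tested.

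With each library left out in turn, the counts against vehicle at the low doses ranged from 17 to 47 (Sayeok-tang), 6 to 49 (Bojungikgi-tang), 4 to 22 (fresh ginger), 2 to 13 (dried ginger), 5 to 30 (Pinellia) and 10 to 40 (Scutellaria). In the same order of extracts they ranged from 12 to 44, 0 to 16, 0 to 10, 6 to 27, 11 to 41 and 25 to 52 at the medium doses and from 32 to 55, 3 to 27, 11 to 33, 39 to 51, 14 to 48 and 43 to 60 at the high doses. High against low ranged from 11 to 20 with dried ginger and 15 to 22 with Scutellaria, dried against fresh ginger from 4 to 10 (high) and 0 to 5 (medium), the ginger dose changes from 1 to 4, and Sayeok-tang against Bojungikgi-tang high from 0 to 1. Coptis medium and high ranged from 0 to 1 and Zizyphus low from 0 to 2. For named genes, 6500 values under other settings kept their side of the threshold, 298 passed it newly and 104 lost it. With 1 library left out these were 5489, 107 and 456.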
